A study of Mus musculus with 24 samples.

Results

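Forkhead factors are transcription factors that share the forkhead (winged helix) DNA-binding domain and are named Fox with a subfamily letter and a number. The genes described here are the 44 of 22609 counted mouse gene symbols that consist of Fox, a letter from a to s, a number and at most a final a or b. Foxl2os, an antisense transcript of Foxl2, and Foxred1 and Foxred2, which are no forkhead factors, were outside that pattern. Each of the 44 had a count in at least 1 library. At a group mean of at least 1 CPM (a gene's counts per M gene counts of its library, with library sizes scaled by the trimmed mean of M values), 29 of the 44 were present in at least 1 of 8 sample groups and 20 in all 8. The number per group was 23 in untransfected cells, 23 with shNMC, 22 with shCdk8, 24 with shMed12 and 25 with shRing1b, and after retinoic acid 25 with shNMC, 23 with shCdk8 and 25 with shMed12. The other 15 stayed under 1 CPM in every group.

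The cells were E14TG2a mouse embryonic stem cells (mESC), an established line from 129/Ola blastocysts, grown without feeder cells in serum and LIF, the cytokine that keeps them undifferentiated. In that state there were 5 groups: untransfected cells, and cells with a stably transfected short hairpin that has no mammalian target (shNMC) or is directed at Med12, Cdk8 or Ring1b, whose gene symbol is Rnf2. For the 3 early differentiating groups (shNMC, shMed12 and shCdk8), LIF was withdrawn and all-trans retinoic acid (RA) was given at 1e-06 M for 24 h. Every group had 3 poly-A RNA libraries. No group had LIF withdrawn without RA, so the parts of RA and of LIF withdrawal cannot be told apart, and "RA" below means both. The labels used here give neither the number of hairpins and clones per target nor whether the 3 libraries of a group came from separate cultures, so p-values measure the spread between these libraries, which may be technical.

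Foxd3 is known as a factor of pluripotent cells and, later, of the neural crest, and Foxh1 carries Smad2 and Smad3 to targets of the Nodal signal. The FoxA factors open chromatin for endoderm genes, FoxC and FoxF factors act in mesoderm, FoxO factors are held out of the nucleus by insulin signalling, and Foxm1 drives mitotic genes. Med12 and Cdk8 belong to the kinase module of Mediator, the complex that links transcription factors to RNA polymerase II. Ring1b is the ubiquitin ligase of Polycomb repressive complex 1, which marks the CpG-rich promoters of many developmental regulators in mESC.

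RefSeq promoters (GRCm38.p6) were on hand for 28 of the 44 genes, 33 promoters in all. In the 250 bases before the start, 14 of the 28 genes had a promoter with at least 20 CG dinucleotides, a density that 17.9% of all 32851 promoters reached (median 6). Promoters at that density belonged to 5 of 8 genes that rose after RA in shNMC cells, 4 of 6 that fell, 5 of 8 tested and not called, and 0 of 6 not tested. The stretches below are the upstream bases outside any annotated exon of GENCODE vM21, for 4 members on which the results turn and for 1 low-CpG contrast, Foxi2. Capitals mark AGGTCA, a nuclear receptor half-site, and TGTTTAC, a forkhead core motif, on either strand, so that matches on the other strand read TGACCT and GTAAACA. The motifs do not overlap each other.
Foxd3, chr4:99656049-99656298, plus strand: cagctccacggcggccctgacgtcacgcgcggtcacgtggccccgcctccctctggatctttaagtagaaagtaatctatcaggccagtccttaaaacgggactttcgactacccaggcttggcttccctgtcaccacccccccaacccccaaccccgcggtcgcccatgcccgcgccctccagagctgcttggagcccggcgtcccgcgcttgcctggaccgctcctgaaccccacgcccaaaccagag
Foxa1, chr12:57546122-57546361, minus strand: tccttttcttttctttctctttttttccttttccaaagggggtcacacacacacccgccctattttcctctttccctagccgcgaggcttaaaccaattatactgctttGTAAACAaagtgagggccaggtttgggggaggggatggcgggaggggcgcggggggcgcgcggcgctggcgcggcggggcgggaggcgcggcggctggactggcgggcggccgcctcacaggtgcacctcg
Foxi3, chr6:70956356-70956530, plus strand: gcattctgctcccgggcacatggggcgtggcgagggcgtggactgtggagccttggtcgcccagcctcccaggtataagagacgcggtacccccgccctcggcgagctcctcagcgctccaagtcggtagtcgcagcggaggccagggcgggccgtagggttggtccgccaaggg
Foxc1, chr13:31806396-31806632, plus strand: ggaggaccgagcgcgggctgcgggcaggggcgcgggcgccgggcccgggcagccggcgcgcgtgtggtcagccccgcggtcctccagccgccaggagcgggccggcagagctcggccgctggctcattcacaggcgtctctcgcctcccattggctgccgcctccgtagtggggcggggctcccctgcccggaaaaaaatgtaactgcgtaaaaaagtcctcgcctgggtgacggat
Foxi2, chr7:135410117-135410307, plus strand: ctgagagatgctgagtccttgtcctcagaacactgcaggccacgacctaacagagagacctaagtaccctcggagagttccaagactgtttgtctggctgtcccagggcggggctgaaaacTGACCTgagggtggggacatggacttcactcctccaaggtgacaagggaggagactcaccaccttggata
The full windows of 250 bases held 21 CG in Foxd3, 21 in Foxa1, 24 in Foxi3 and 29 in Foxc1, against 3 in Foxi2. Foxa1 was the only 1 of the 28 genes with TGTTTAC, which 3.17% of all promoters hold. AGGTCA, in 14% of all promoters, was in those of Foxe3, Foxi2, Foxk2 and Foxp3. Foxi2 held it at 2 places, of which 1 lies in the printed stretch and 1 in an annotated exon. A match is a description of these letters and no evidence of binding.

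Libraries held 27.4 to 34.1 M gene counts in the untransfected and shRing1b groups and 37.8 to 57.3 M in the other 18 libraries, and reads with several alignments made 20% to 21.7% of entries in the first set and 44.1% to 49.1% in the second. shRing1b was therefore compared with untransfected cells of its own set. Med12 fell from 133 ± 5.48 to 41.7 ± 5.76 CPM with shMed12 in mESC and from 120 ± 24.9 to 48.5 ± 11.5 after RA (means ± SD, n = 3), and Cdk8 fell from 53.4 ± 3.06 to 12.9 ± 2.26 and from 45.6 ± 2.74 to 9.90 ± 2.24 CPM with shCdk8. Rnf2 stood at 52.4, 64.2 and 207 CPM in shRing1b libraries 1, 2 and 3, against 221, 303 and 262 in untransfected cells, so the library labelled shRing1b 3 goes against its label. shRing1b library 2 also stood apart: its 9 extraembryonic endoderm markers summed to 3594 CPM, against 946 and 272 in the other two and 440 to 676 in untransfected cells. The 8 pluripotency markers were all above 1 CPM in every group, those after RA included, so this level does not tell the labelled states apart.

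In shNMC mESC, levels between genes were compared per kilobase of merged exons (GENCODE vM21). Foxh1 was the most abundant at 29.4 CPM per kb, followed by Foxn2 at 25, Foxm1 at 22.7, Foxo4 at 21, Foxp1 at 20.2 and Foxk2 at 20.1. Foxj3 reached 14.3, Foxp4 13.9, Foxo1 8.49 and Foxd3 8.09 CPM per kb. These are mostly broadly expressed members, and Foxd3 and Foxh1 are the members known from early embryonic cells. Foxa1 at 0.583, Foxa2 at 0.236 and Foxc1 at 0.0273 CPM per kb stood much lower.

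**Figure D1:**
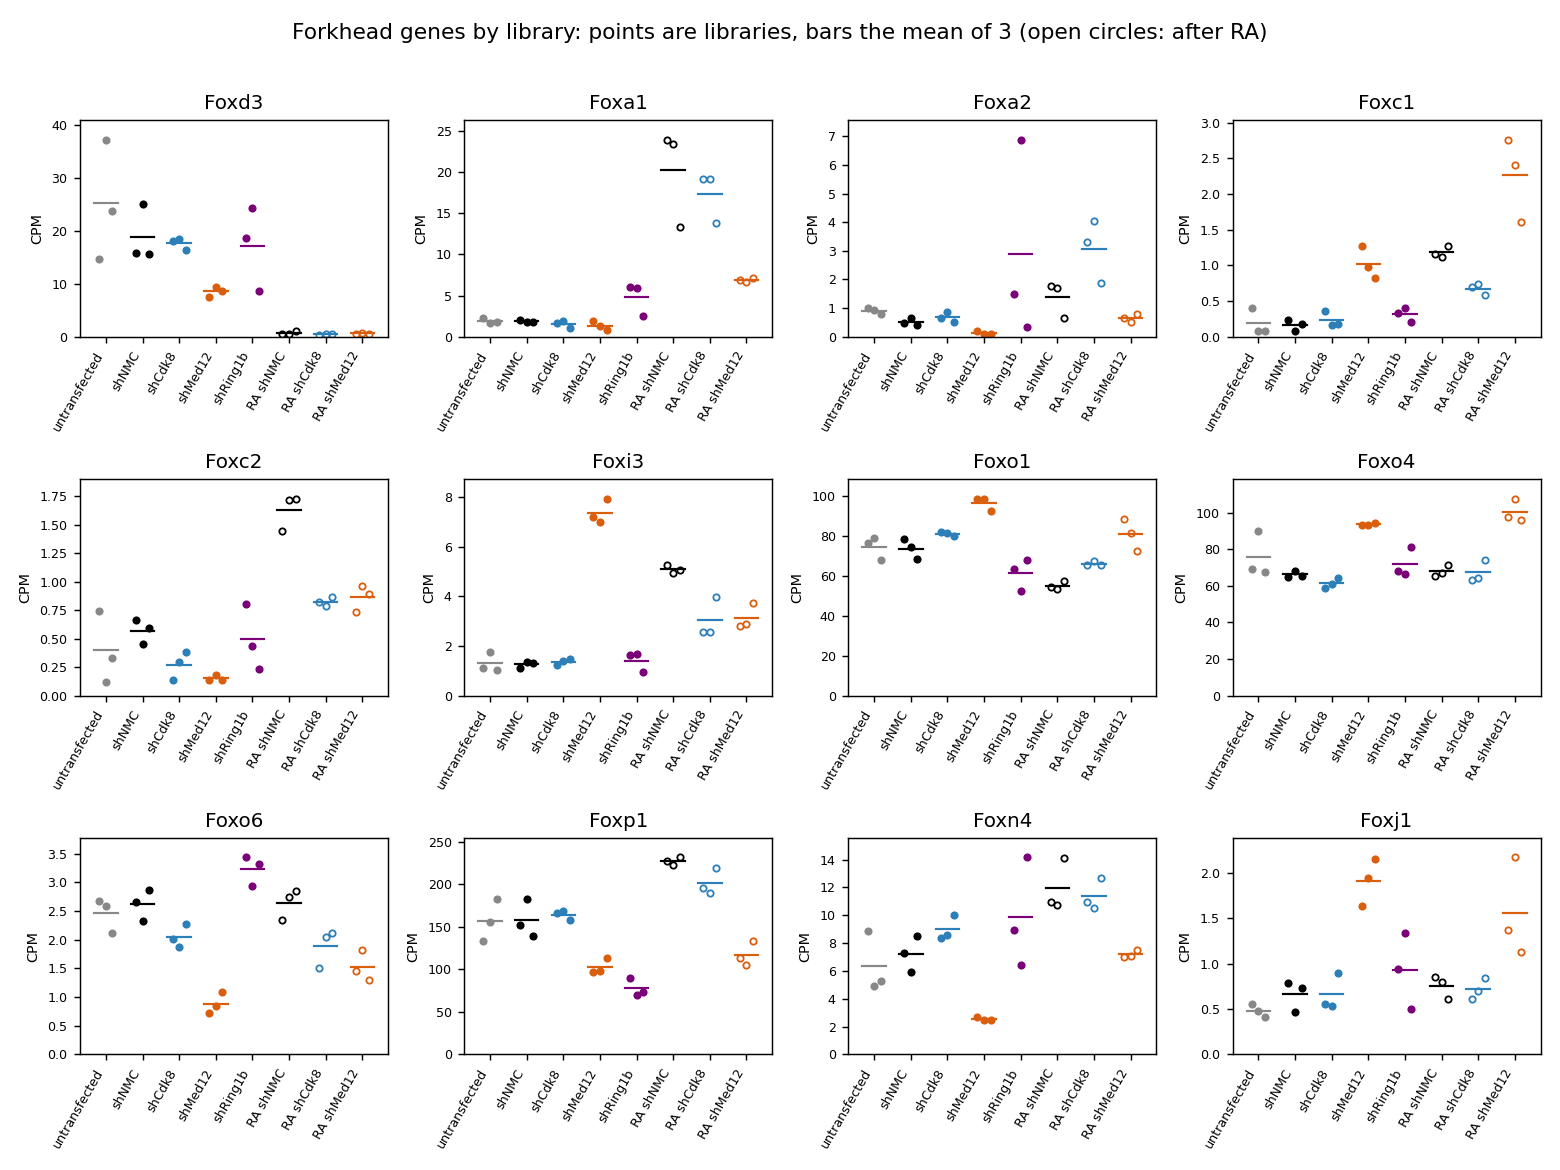
CPM of 12 forkhead genes (vertical axes, linear from 0) in each of 24 libraries; filled points are mESC libraries, open points libraries after RA, and bars the mean of 3. Foxd3 falls to 1.02 CPM or less in every library after RA, Foxa1 is at 13.3 CPM or more in shNMC and shCdk8 libraries after RA and at 7.14 or less in those with shMed12, and Foxi3 is highest in shMed12 mESC.

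The RA comparison in shNMC cells asks which forkhead genes shift within 24 h of the start of differentiation. Foxd3 nearly disappeared while Foxa1, Foxi3 and several low-level developmental members rose. Of 35 genes that passed the filter on low counts and were tested, 13 rose and 7 fell (edgeR quasi-likelihood F test, Benjamini-Hochberg adjusted p under 0.05 over all 16280 genes tested). Over all genes tested, 27.3% rose and 24.1% fell, 51.4% in all, so the share of forkhead genes called is near that background. Their median absolute log2 change was 0.61, beside 0.41 over all genes.

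Foxd3 stood at 15.8, 25 and 15.6 CPM in the shNMC libraries and at 0.536, 0.568 and 1.02 CPM after RA. The groups lie far apart, and Foxd3 fell by 4.73 on the log2 scale (SE 0.38, adjusted p 2.5e-09), the largest fitted change among the members. Foxd3 was also at 0.364 to 0.618 CPM after RA with shCdk8 and 0.556 to 0.784 with shMed12. In bulk RNA, fewer cells that express a gene and less RNA per cell cannot be told apart. The summed level of 8 pluripotency markers, which moved the same way, was 5662 to 5715 CPM before and 2255 to 2705 CPM after RA, and its part in the result was not tested.

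Foxa1, the endoderm pioneer factor, stood at 1.99, 1.79 and 1.79 CPM before and at 23.9, 23.4 and 13.3 CPM after RA. All 3 libraries after RA were above all 3 before, with a log2 rise of 3.44 (SE 0.31, adjusted p 1.7e-08). Foxa2, which acts in the same tissues, was at 0.418 to 0.649 CPM before and 0.670 to 1.79 CPM after, with a log2 change of 1.42 (SE 0.63) that missed the threshold (adjusted p 0.0638). DESeq2, the fit of the 2 groups alone and the fit without RA library 3 called it as risen. Foxa3, the liver and gut member, was level at 2.77 ± 0.289 and 2.97 ± 0.313 CPM, a log2 difference of 0.10 (SE 0.19). Of 12 tested genes on a list of FoxA endoderm partners and targets, 5 rose and 0 fell, with a median log2 change of 0.69 beside 0.02 over all genes. The 9 extraembryonic endoderm markers summed to 345 to 414 CPM before and 294 to 313 CPM after RA. That fall came from Lama1, at 229 and 88.1 CPM, while every other marker on the list had a higher mean after RA. The 8 trophectoderm markers summed to 20.1 to 25.2 and 41.4 to 50.7 CPM. The part of these markers in the RA changes was not tested. Apob, a lipoprotein gene, went from 6.23 to 20.8 CPM and the chemokine receptor gene Cxcr4 from 1.59 to 2.68 CPM.

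Foxc1 and Foxc2, factors of paraxial mesoderm and vessels, rose together from low levels. Foxc1 was at 0.228, 0.0787 and 0.172 CPM before and 1.16, 1.12 and 1.27 CPM after RA, a log2 rise of 2.88 (SE 0.41, adjusted p 5.9e-06). Foxc2 went from 0.452 to 0.664 CPM up to 1.45 to 1.73 CPM, a log2 rise of 1.52 (SE 0.36, adjusted p 0.00129). Both pairs of groups are separate. Foxf1a, a lateral mesoderm factor, went from 1 count in 3 shNMC libraries together to 23 after RA. The ratio was 19.4 (exact 95% interval 3.14 to 797, counting error only). Mthfsd lies between it and Foxc2 on the chromosome and rose too (log2 0.61, SE 0.14), while Foxl1, next to Foxc2, had 0 counts in the shNMC libraries and 9 after RA (at most 0.0715 CPM). Foxl1 did not pass the filter, and with no filter on low counts it was called as risen. Of 13 tested FoxC and FoxF mesoderm partners 7 rose and 1 fell: the platelet-derived growth factor receptor gene Pdgfrb went from 6.92 to 28.3 CPM and Snai1, a driver of epithelial to mesenchymal transition, from 1.87 to 4.39 CPM.

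The ectodermal genes Foxi3 and Foxi2 also rose. Foxi3, a factor of the placodes, had 1.1, 1.34 and 1.33 CPM before and 5.26, 4.93 and 5.07 CPM after RA (log2 rise 2.02, SE 0.23, adjusted p 2.6e-07), with a narrow spread in both groups. Foxi2 had 3 counts in the shNMC libraries together and 43 after RA, a ratio of 12.1 (3.86 to 60.8). Foxl2, the ovary and pituitary factor, went from 0.0492 to 0.0787 CPM up to 0.929 to 1.07 CPM (log2 rise 3.88, SE 0.57). Foxl2os, transcribed from the opposite strand, rose by 3.57 (SE 0.40), and because no source used here states the strand setting of the counting, reads of the pair cannot be told apart.

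Foxp1, a broadly expressed repressor, rose from 153, 183 and 139 CPM to 228, 223 and 232 CPM (log2 0.52, SE 0.12, adjusted p 9.6e-04). Foxp2, a factor of the developing brain, rose from 0.0737 to 0.0984 CPM up to 0.769 to 1.03 CPM (log2 3.34, SE 0.52), while Foxp4 fell from 55.0 to 57.0 CPM down to 39.4 to 40.3 CPM (log2 -0.49, SE 0.14). Foxo1 fell from 73.6 ± 5.08 to 55.0 ± 2.24 CPM (log2 -0.42, SE 0.09), and Foxn2 from 127 ± 14.0 to 83.5 ± 4.27 CPM (log2 -0.61, SE 0.10). Foxd2 rose from 0.0940 ± 0.0330 to 0.879 ± 0.0594 CPM (log2 3.20, SE 0.43) and Foxs1, a pericyte marker, from 0.0417 ± 0.0172 to 0.199 ± 0.0370 CPM (log2 2.15, SE 0.59).

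Other calls were small and hung on single libraries. Foxn4 rose from 7.25 ± 1.32 to 11.9 ± 1.91 CPM and lost its call without shNMC library 2 or RA library 3 (adjusted p 0.0511 to 0.062). Foxj3 (log2 -0.22) lost it without any 1 of 5 libraries, all but RA library 3 (0.0895 to 0.186). Foxn3 (log2 -0.51) lost it without RA library 1 or 2 or shNMC library 1 or 3 (0.0582 to 0.132), and Foxr2 (log2 -0.64) without RA library 1 or 3 or shNMC library 1 or 2 (0.0515 to 0.131). The fitted rise of Foxf1a (log2 3.84) was 5.69 without shNMC library 1, which held its only count, and that of Foxi2 (log2 3.44) was 4.24 without shNMC library 2.

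The list of neural crest genes that Foxd3 is known to act with did not follow Foxd3. Of 10 tested, 9 rose after RA and 1 fell, with a median log2 change of 1.90. Msx2 went from 1.72 to 8.92 CPM, Msx1 from 0.358 to 3.84, Sox10 from 0.804 to 2.91 and Pax3 from 0.0433 to 0.992 CPM. Foxh1 itself was at 40.1 ± 4.05 and 42.6 ± 2.78 CPM, a log2 difference of 0.09 (SE 0.15). On its Nodal pathway list, 7 of 15 rose and 2 fell. The co-receptor gene Tdgf1, which is also on the pluripotency list, dropped from 1160 to 164 CPM, while the target gene Lefty1 went from 82.1 to 469 CPM. Foxm1 was level at 106 ± 3.12 and 116 ± 10.7 CPM, and of 20 mitotic targets 2 rose and 7 fell (Bub1b 447 to 317 CPM, Top2a 1843 to 1382 CPM). Of 18 FoxO targets, 6 rose and 5 fell, and the number called was 7 without shNMC library 2 and without RA library 2 or 3. Sod2, a mitochondrial superoxide dismutase, dropped from 193 to 73.9 CPM and Bcl2l11, a pro-apoptotic gene, went from 49.1 to 69.6 CPM. Foxj1 was level at 0.666 ± 0.170 and 0.757 ± 0.127 CPM, and of 9 tested genes on its motile cilium list 3 rose and 2 fell (Tekt2 3.16 to 6.41 CPM, Spag6 2.39 to 0.417 CPM).

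**Figure D2:**
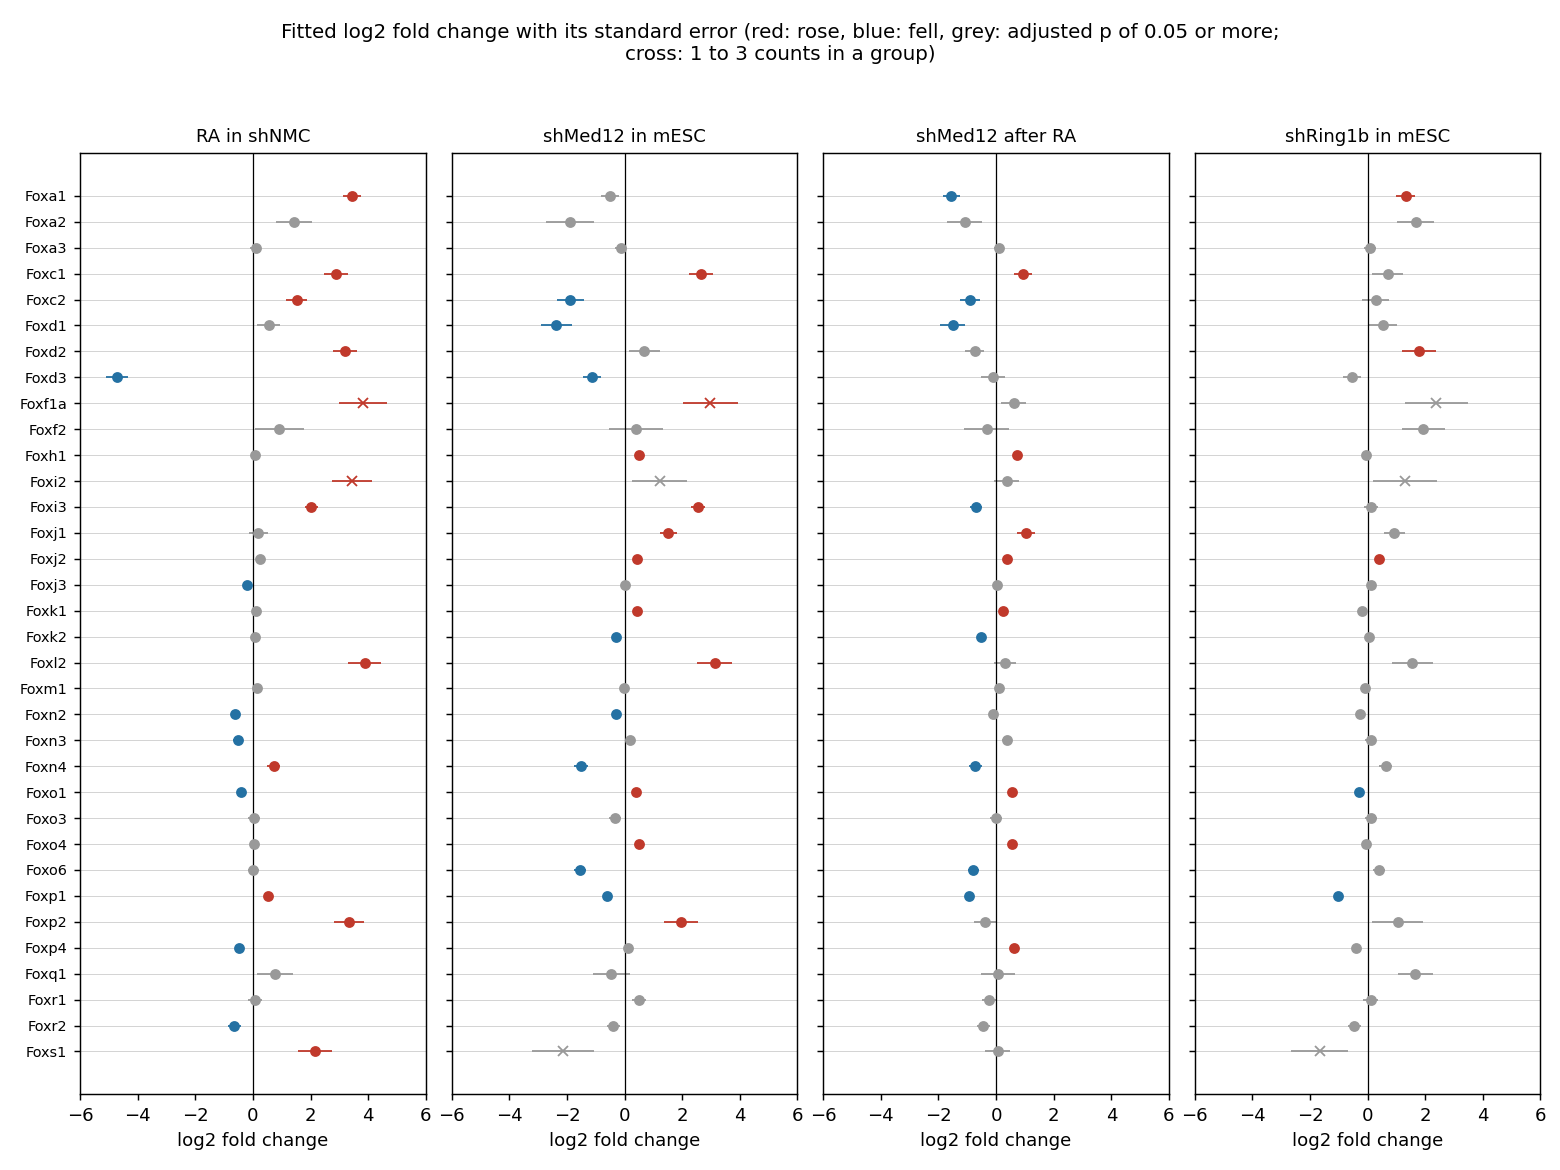
Fitted log2 fold change (horizontal axis) of tested forkhead genes in 4 comparisons, with its standard error; red marks genes that rose, blue genes that fell, grey those not called, and crosses genes with 1 to 3 counts in a group, whose fitted value depends on edgeR's prior count. Foxd3 lies farthest to the left under RA, at -4.73, and Foxa1 is red under both RA (3.44) and shRing1b (1.32).

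The shMed12 comparison in mESC asks how the family differs before differentiation in cells with less Med12 RNA. Of the 35, 11 rose and 8 fell, beside 20.6% and 19.9% over all genes tested (40.5% in all). The changes ran both up and down within subfamilies. In FoxO, Foxo1 and Foxo4 rose and Foxo6 fell. In FoxC, Foxc1 rose and Foxc2 fell, and in FoxK, Foxk1 rose and Foxk2 fell.

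Foxi3 changed most clearly, from 1.1, 1.34 and 1.33 CPM with shNMC to 7.18, 7.0 and 7.94 CPM with shMed12 (log2 2.55, SE 0.23, adjusted p 1.1e-08). That level is above the 4.93 to 5.26 CPM of shNMC cells after RA. Foxc1 rose from 0.160 ± 0.0756 to 1.02 ± 0.226 CPM (log2 2.67, SE 0.42), and Foxc2 fell from 0.569 ± 0.108 to 0.153 ± 0.0230 CPM (log2 -1.88, SE 0.46). Foxl2 rose from 0.0634 ± 0.0148 to 0.589 ± 0.214 CPM (log2 3.14, SE 0.61), together with Foxl2os (log2 2.92, SE 0.41). Foxp2 rose from 0.0850 ± 0.0124 to 0.344 ± 0.161 CPM (log2 1.95) and lost its call without shMed12 library 1 (adjusted p 0.0593). Foxf1a had 1 count with shNMC and 10 with shMed12, a ratio of 10.6 (1.51 to 459), and lost its call without shMed12 library 1 or shNMC library 2 or 3 (0.0503 to 0.0674); its fitted log2 rise of 2.98 became 4.83 without shNMC library 1.

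Foxd3 fell from 15.8, 25 and 15.6 CPM to 7.59, 9.44 and 8.68 CPM (log2 -1.14, SE 0.31, adjusted p 0.00566), and every shMed12 library was below every shNMC library. Foxd1 fell from 0.520 ± 0.162 to 0.101 ± 0.0360 CPM (log2 -2.37, SE 0.55). Foxn4, a factor of retinal and spinal progenitors, fell from 7.31, 5.90 and 8.53 CPM to 2.68, 2.44 and 2.50 CPM (log2 -1.51, SE 0.24, adjusted p 3.0e-05). Foxo6, the neuronal FoxO member, fell from 2.66, 2.32 and 2.88 CPM to 0.716, 0.847 and 1.09 CPM (log2 -1.56, SE 0.20, adjusted p 2.4e-06). Foxp1 fell from 158 ± 22.4 to 103 ± 8.76 CPM (log2 -0.62, SE 0.12).

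The abundant members that rose did so by less. Foxo4 was at 64.9, 68.4 and 65.5 CPM with shNMC and at 93.2, 93.2 and 94.5 CPM with shMed12 (log2 0.50, SE 0.10, adjusted p 3.5e-04). Foxo1 rose from 73.6 ± 5.08 to 96.5 ± 3.64 CPM (log2 0.39, SE 0.09), Foxk1, a metabolic regulator, from 53.8 ± 1.12 to 72.5 ± 4.32 CPM (log2 0.43, SE 0.09), and Foxj2 from 11.1 ± 1.35 to 15.0 ± 0.730 CPM (log2 0.44, SE 0.11). Foxj1, the regulator of motile cilia, rose from 0.666 ± 0.170 to 1.91 ± 0.260 CPM (log2 1.53, SE 0.31). Foxh1 rose from 40.1 ± 4.05 to 57.3 ± 9.47 CPM (log2 0.52) and lost its call without shMed12 library 3 (adjusted p 0.0576). Foxk2 (log2 -0.31) lost its call without any 1 of 5 libraries, all but shMed12 library 3 (0.0592 to 0.155), and Foxn2 (log2 -0.29) without shMed12 library 1 or 3 or shNMC library 1 or 2 (0.072 to 0.147).

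Among the listed partners, 0 of 12 FoxA endoderm genes rose and 6 fell (median log2 change -1.53, beside -0.01 over all genes). The hepatocyte factor gene Hnf4a dropped from 6.16 to 0.675 CPM and Gata6, an endoderm factor, from 4.27 to 1.19 CPM. Ttr, a transport protein gene, went from 43 counts to 0 in 3 libraries each, at least 13.5-fold lower with 3 counts over the group as the floor. Foxa1 at 1.86 ± 0.116 and 1.32 ± 0.525 CPM and Foxa2 at 0.515 ± 0.120 and 0.137 ± 0.0613 CPM were not called by edgeR. The Foxa2 libraries did not overlap, and DESeq2 and the fit of the 2 groups alone called it as fallen. Foxj1 and its cilium list ran opposite ways: of 9 tested, 5 fell and 1 rose, with Hydin, a central-pair protein gene, at 38.6 and 4.27 CPM and Tekt1 at 9.76 and 3.90 CPM. Of 10 neural crest genes 5 rose and 0 fell, among them Ets1 (4.49 to 25.7 CPM) and Msx1 (0.358 to 2.05 CPM). On the Nodal list 5 rose and 3 fell (Smad3 22.3 to 41.7 CPM, Tdgf1 1160 to 536 CPM), and on the FoxO list 3 each way (Irs2 3.22 to 24.4 CPM, Txnip 1209 to 209 CPM). Of 13 mesoderm partners 3 rose and 1 fell (Hand1, also a trophectoderm marker, 0.258 to 16.9 CPM, and Snai1 1.87 to 4.86 CPM). FoxM1 targets were called 2 each way, with Foxm1 at 106 ± 3.12 and 105 ± 5.11 CPM.

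Markers of other cell types moved with these changes. Trophectoderm markers, of which 8 of 9 had rows in the files, summed to 20.1 to 25.2 CPM with shNMC, where 5 (Cdx2, Krt7, Hand1, Elf5 and Gata3) were under 1 CPM, and to 550 to 702 CPM with shMed12, where only Elf5 was. None of these was at 0 in either group. Most of the trophectoderm sum with shMed12 was Krt18 at 388 and Krt8 at 147 CPM, while Cdx2 was at 5.56 and Gata3 at 6.93 CPM. The 8 fibroblast markers summed to 10.6 to 11.5 and 337 to 383 CPM, with Postn and Dcn under 1 CPM in both groups. Most of the shMed12 sum was Tagln at 273 and Acta2 at 59.0 CPM, and only Thy1 went down, from 7.39 to 3.48 CPM. The 6 neural markers summed to 121 to 133 and 135 to 142 CPM. Of these Nes rose from 10.4 to 77.7 CPM and every other had a lower mean, among them Sox1 (6.88 to 0.717) and Ncam1 (56.0 to 11.9). The 9 extraembryonic endoderm markers, 4 of which are on the FoxA list, summed to 345 to 414 and 222 to 253 CPM, and the 8 pluripotency markers to 5662 to 5715 and 3249 to 3486 CPM. Their part in the forkhead changes was not tested.

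After RA, shMed12 was again set against shNMC. Of the 35, 8 rose and 8 fell, beside 21.3% and 20.6% over all genes tested (41.9% in all). The 2 shMed12 comparisons share no library. Foxc1, Foxh1, Foxj1, Foxj2, Foxk1, Foxo1 and Foxo4 rose in both states and Foxc2, Foxd1, Foxk2, Foxn4, Foxo6 and Foxp1 fell in both. These were 13 of the 19 called in mESC and 13 of the 16 called after RA. The like share over all genes tested was not counted, so this overlap is not read as particular to forkhead genes. Foxi3 was called in opposite directions.

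Foxa1 had the largest fall. It stood at 23.9, 23.4 and 13.3 CPM with shNMC and at 6.87, 6.63 and 7.14 CPM with shMed12 (log2 -1.55, SE 0.28, adjusted p 1.6e-04), with no overlap. Of its 12 listed partners and targets 0 rose and 7 fell (median log2 change -1.16), with Hnf4a at 6.07 and 0.438 CPM and Cxcr4 at 2.68 and 1.45 CPM. Foxa2 was at 1.39 ± 0.622 and 0.654 ± 0.136 CPM and was not called, except in the fit of the 2 groups alone, where it fell. The extraembryonic endoderm markers summed to 294 to 313 and 255 to 277 CPM. In that sum Col4a1 (129 to 169 CPM) and Dab2 (41.9 to 50.1 CPM) had higher means with shMed12. Every other marker had a lower mean, among them Lama1 (88.1 to 21.2 CPM), Pdgfra (16.4 to 8.12 CPM) and Gata6 (8.63 to 3.08 CPM). The part of these markers was not tested.

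Foxp1 fell from 228, 223 and 232 CPM to 114, 105 and 133 CPM (log2 -0.96, SE 0.12, adjusted p 1.6e-06), so that the level after RA with shMed12 was below that of shNMC mESC. Foxp4 rose from 40.3, 39.4 and 39.9 CPM to 55.9, 64.5 and 65.3 CPM (log2 0.63, SE 0.14, adjusted p 8.8e-04). Foxo1 rose from 55.0 ± 2.24 to 80.8 ± 8.0 CPM (log2 0.56, SE 0.09) and Foxo4 from 68.0 ± 3.23 to 100 ± 6.41 CPM (log2 0.56, SE 0.10), while Foxo6 fell from 2.65 ± 0.270 to 1.52 ± 0.271 CPM (log2 -0.80, SE 0.19). All 3 moved the same way in mESC. Foxo3, not called, was at 36.2 ± 9.74 and 36.3 ± 6.49 CPM. Foxh1 rose from 42.6 ± 2.78 to 71.3 ± 10.8 CPM (log2 0.74, SE 0.15), Foxd1 fell from 0.763 ± 0.145 to 0.267 ± 0.0488 CPM (log2 -1.50, SE 0.43), and Foxk2 fell from 106 ± 7.25 to 73.0 ± 9.23 CPM (log2 -0.53, SE 0.12).

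Several calls after RA depended on 1 library. Foxc1 rose from 1.18 ± 0.0761 to 2.26 ± 0.586 CPM (log2 0.93, SE 0.32) and lost its call without any 1 of 5 libraries, all but shMed12 library 3 (adjusted p 0.0507 to 0.114). Foxc2 fell from 1.63 ± 0.161 to 0.864 ± 0.118 CPM (log2 -0.92, SE 0.34) and lost it without any 1 of 5, all but shNMC library 1 (0.0626 to 0.106). Foxk1 (log2 0.25) lost it without shMed12 library 2 or 3 or shNMC library 1 or 2 (0.0686 to 0.175). Foxj1 rose from 0.757 ± 0.127 to 1.56 ± 0.547 CPM (log2 1.04) and lost it without shMed12 library 2 or shNMC library 3 (0.0507 to 0.0868), and Foxj2 (log2 0.37) without shMed12 library 1 or shNMC library 2 (0.0523 to 0.0801). Foxn4 fell from 11.9 ± 1.91 to 7.21 ± 0.280 CPM (log2 -0.73) and lost it without shNMC library 3 (0.0615), and Foxi3 without shMed12 library 2 (0.0519).

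The cilium list again fell where Foxj1 rose, with 4 of 9 lower and 0 higher (Hydin 42.4 to 4.87 CPM, Rfx3 39.8 to 21.6 CPM). Of 10 neural crest genes 4 rose and 2 fell (Msx1 3.84 to 20.9 CPM, Msx2 8.92 to 23.4 CPM), of 15 Nodal genes 3 each way (Smad3 32.8 to 72.9 CPM, Lefty2 120 to 52.6 CPM), and of 13 mesoderm partners 2 each way (Hand1 0.620 to 10.0 CPM, Tcf15 15.1 to 6.47 CPM). Of 18 FoxO targets 1 rose and 2 fell, and of 20 FoxM1 targets 3 rose and 1 fell. Trophectoderm markers summed to 41.4 to 50.7 and 659 to 854 CPM and fibroblast markers to 11.6 to 13.4 and 310 to 346 CPM. Krt18 at 484 and Krt8 at 172 CPM made most of the second trophectoderm sum. Most of the second fibroblast sum was Tagln, at 263 CPM, and only Thy1 was lower with shMed12, at 4.23 and 2.02 CPM. The part of these markers was not tested.

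Whether the change with shMed12 differed between the 2 states was tested as an interaction. Of 35 members 0 rose and 2 fell, Foxi3 and Foxl2, beside 1.74% and 3.30% over all genes tested (5.04% in all). Foxi3 was at 7.18, 7.0 and 7.94 CPM with shMed12 in mESC and at 2.82, 2.87 and 3.73 CPM after RA, whereas with shNMC it went from 1.1 to 1.34 CPM up to 4.93 to 5.26 CPM. The lines thus cross: shMed12 was higher than shNMC before RA (log2 2.55) and lower after it (log2 -0.70, SE 0.21, adjusted p 0.0113). The difference of the differences was -3.25 (SE 0.31, adjusted p 2.3e-06), and between -3.39 and -3.19 with any 1 of 12 libraries left out. For Foxl2 the difference was -2.84 (SE 0.74, adjusted p 0.0251), with a log2 change of 3.14 in mESC and of 0.30 (SE 0.39, adjusted p 0.561) after RA, where the levels were 0.981 ± 0.0731 and 1.21 ± 0.101 CPM. Foxl2os gave -2.82 (SE 0.52, adjusted p 0.00214). The Foxl2 call was lost without any 1 of 7 libraries (adjusted p 0.0502 to 0.0919), namely shNMC 1, 2 or 3 and shMed12 1 in mESC, and shNMC 2 and shMed12 2 or 3 after RA.

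**Figure D3:**
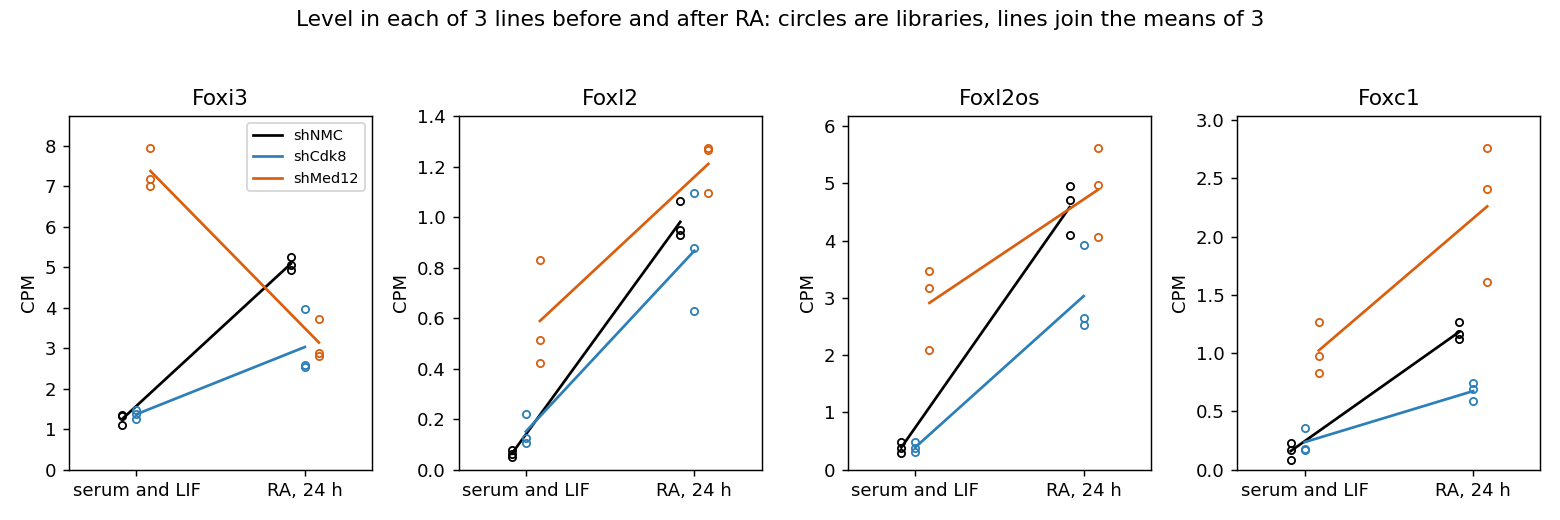
CPM (linear axes from 0) of Foxi3, Foxl2, its antisense transcript Foxl2os and Foxc1 in shNMC, shCdk8 and shMed12 cells in serum and LIF and after 24 h of RA; circles are libraries and lines join the means of 3. In the Foxi3 panel the shMed12 line goes from 7.37 down to 3.14 CPM while the shNMC line goes from 1.26 up to 5.09 CPM.

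shCdk8 was measured to compare the other kinase module subunit. In mESC 0 of 35 members were called by edgeR, beside 3.66% over all genes tested. At an unadjusted p under 0.05 there were 3 (Foxa3, Foxc2 and Foxs1), and DESeq2 also called 0. Foxi3, at 1.24, 1.38 and 1.48 CPM with shCdk8, lay within the range of the shNMC and untransfected libraries (1.04 to 1.76 CPM). Foxd3 was at 17.6 ± 1.13 CPM, beside 18.8 ± 5.35 with shNMC.

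After RA, Foxi3 was at 5.26, 4.93 and 5.07 CPM with shNMC and lower with shCdk8, at 2.55, 2.58 and 3.96 CPM (edgeR log2 -0.75, SE 0.21, adjusted p 0.0308). It was the only member called, beside 7.73% over all genes tested. The call was lost without any 1 of 5 libraries, all but shCdk8 library 3 (adjusted p 0.0634 to 0.168). Foxc1, at 1.18 ± 0.0761 and 0.675 ± 0.0788 CPM, and Foxc2, at 1.63 ± 0.161 and 0.826 ± 0.0371 CPM, were lower with shCdk8 in every library, with adjusted p 0.152 and 0.0813. Same-numbered libraries of these 2 groups deviated together, and with the replicate number as a block 21 members were called, 10 higher and 11 lower, beside 24.9% and 25% of 15828 genes tested in that fit (50.0% in all). With the block Foxi3 fell by 0.77 (SE 0.13, adjusted p 5.2e-04), Foxc2 by 0.98 (SE 0.15), Foxc1 by 0.80 (SE 0.17) and Foxo6 by 0.49 (SE 0.12). Foxa2 rose by 1.15 (SE 0.14), from 1.79, 1.70 and 0.670 CPM to 3.31, 4.05 and 1.88 CPM, Foxf2 rose by 1.06 (SE 0.26) and Foxo1 by 0.26 (SE 0.04). The 9 extraembryonic endoderm markers summed to 294 to 313 CPM with shNMC and 394 to 475 CPM with shCdk8 after RA, and their part was not tested. The other 14 calls included Foxa3 (-0.43) and Foxq1 (0.42). No member was called in the shCdk8 by RA interaction (3 at an unadjusted p under 0.05, 0 by DESeq2), beside 0.0307% that rose and 0.0369% in all over the genes tested.

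The 2 hairpins were also compared directly. In mESC, shMed12 was above shCdk8 for 14 of 35 members and below for 7, beside 18.4% and 17.4% over all genes tested (35.8% in all). Foxi3 (log2 2.42, SE 0.23), Foxn4 (log2 -1.83, SE 0.24), Foxo4 (log2 0.61, SE 0.10) and Foxo6 (log2 -1.21, SE 0.20) had the lowest p-values. Foxs1 had 1 count with shMed12 and 17 with shCdk8, a ratio of 0.0618 (0.00148 to 0.394). Foxa2, at 0.137 ± 0.0613 and 0.680 ± 0.184 CPM, differed by -2.29 (SE 0.81) and lost its call without any 1 of 5 libraries, all but shCdk8 library 3 (adjusted p 0.0509 to 0.106). Foxr1 (log2 0.68) lost it without any of the 6 (0.0589 to 0.118).

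After RA shMed12 was above shCdk8 for 7 members and below for 6, beside 21.3% and 20.1% over all genes (41.4% in all). Foxa1 (log2 -1.34, SE 0.28) and Foxa2 (log2 -2.23, SE 0.60, adjusted p 0.00486) were both lower with shMed12, Foxa2 at 0.656, 0.517 and 0.789 CPM against 3.31, 4.05 and 1.88 CPM with no overlap. Foxc1 was higher with shMed12 (log2 1.74, SE 0.33) and Foxp1 lower (log2 -0.78, SE 0.12). The extraembryonic endoderm markers summed to 255 to 277 CPM with shMed12 and 394 to 475 CPM with shCdk8, and the trophectoderm markers to 659 to 854 and 48.9 to 60.7 CPM; their part was not tested. Foxi3 did not separate the hairpins after RA, at 3.14 ± 0.513 and 3.03 ± 0.805 CPM. These comparisons share the shMed12 libraries with those against shNMC and are no second source for the same values.

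The shRing1b comparison with untransfected mESC asks which members differ with this hairpin, with which Rnf2 RNA was clearly lower in every library but library 3. Only RNA was used here, so the state of Polycomb repressive complex 1 is not known. Of 35, 4 rose, among them Foxa1, Foxd2 and Foxj2, and 2 fell (Foxo1 and Foxp1), beside 9.68% and 5.42% over all genes tested (15.1% in all). Foxp1 fell from 133, 156 and 183 CPM to 89.8, 69.8 and 73.6 CPM (log2 -1.02, SE 0.12, adjusted p 1.4e-05), and all 3 shRing1b libraries, library 3 included, were below all controls. Without library 3 the fall was 0.97 (SE 0.13) and without library 2 it was 0.95 (SE 0.13). Foxa1 rose from 2.23, 1.72 and 1.82 CPM to 6.07, 5.87 and 2.52 CPM (log2 1.32, SE 0.32, adjusted p 0.00846). It was 1.64 (SE 0.29) without library 3 and 1.15 (SE 0.35) without library 2, called both times. The SE and p-values here take their spread from all 24 libraries. In the edgeR fit of only the 6 compared libraries, adjusted p was 0.141 for Foxp1 and 0.284 for Foxa1, neither called.

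Other members split the shRing1b libraries. Foxd2 stood at 0.438 and 0.434 CPM in libraries 1 and 2, where Rnf2 was low, and at 0.0891 CPM in library 3, with 0.0371 to 0.120 CPM in controls. It lost its call without any 1 of 5 libraries, all but shRing1b library 3 (adjusted p 0.057 to 0.169). Foxj2 rose from 11.3 ± 1.14 to 15.0 ± 1.1 CPM and lost its call without control 2 or 3 (0.0536 to 0.0849). Foxo1 fell from 74.5 ± 5.75 to 61.2 ± 7.89 CPM and lost it without control 1 or 2 or shRing1b library 2 (0.101 to 0.178).

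Foxa2 at 6.88 CPM, Foxq1 at 37.2 CPM and Foxf2 at 4.35 CPM were high in shRing1b library 2, the library with the high endoderm marker sum. In libraries 1 and 3 Foxa2 was at 1.48 and 0.327 CPM, Foxq1 at 6.50 and 1.13 CPM and Foxf2 at 0.371 and 0.178 CPM, beside 0.780 to 1.0, 3.75 to 6.23 and 0.186 to 0.631 CPM in controls. Foxq1 and Foxf2 are neighbours on chromosome 13, next to Foxc1, which was at 0.398 CPM there and 0.0743 to 0.408 CPM in controls. None of the 3 was called by edgeR with all libraries and untransfected controls, while DESeq2 called Foxa2 and edgeR called all 3 with shNMC as control. Without library 3 the fits gave 2.21 for Foxa2 (SE 0.49), 2.21 for Foxq1 (SE 0.42) and 2.48 for Foxf2 (SE 0.62), all called, and without library 2 they gave -0.02, -0.32 and -0.63, none called.

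The count of members called was 11 (8 higher, 3 lower) without library 3, beside 14.0% higher and 9.71% lower over all genes (23.7% in all). It was 11 (7 higher, with Foxp3, which passed the filter in that fit, and 4 lower) without library 1, beside 9.52% and 5.65% (15.2%), and 4 (3 higher, 1 lower) without library 2, beside 8.60% and 4.91% (13.5%). It was 2 without control 2, beside 1225 higher and 690 lower of 16449 genes tested. Without control 1 it was 8, beside 1578 and 984 of 16452. Of 12 FoxA partners and targets 3 rose and 0 fell (Gata6 7.65 to 25 CPM, Cxcr4 1.25 to 2.84 CPM), but 8 rose without library 3, 7 without library 1, 1 without library 2 and 1 without control 3. Of 10 neural crest genes 4 rose and 1 fell (Ets1 4.10 to 12.8 CPM), 7 and 1 without library 3, and 3 and 0 without library 1 or control 2. Of 13 mesoderm partners 3 rose and 0 fell, of 15 Nodal genes 2 and 0, of 18 FoxO targets 1 and 2, of 9 cilium genes 1 and 1, and of 20 FoxM1 targets 0 and 0. These counts too moved with single libraries. Mesoderm partners called numbered 6 without library 3 and 1 without control 2 or 3, and Nodal genes 1 without library 3. FoxO targets called numbered 5 without library 1 or 2, cilium genes 4 without library 3 and 1 without any 1 control, and FoxM1 targets 4 without library 3 and 1 without library 2 or control 1. With only the 6 libraries in the fit no gene of 14378 was called, and 0 members had an adjusted p under 0.05. With shNMC as control 11 members were called (9 higher, 2 lower), beside 12.9% and 7.36% (20.2% in all).

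**Figure D4:**
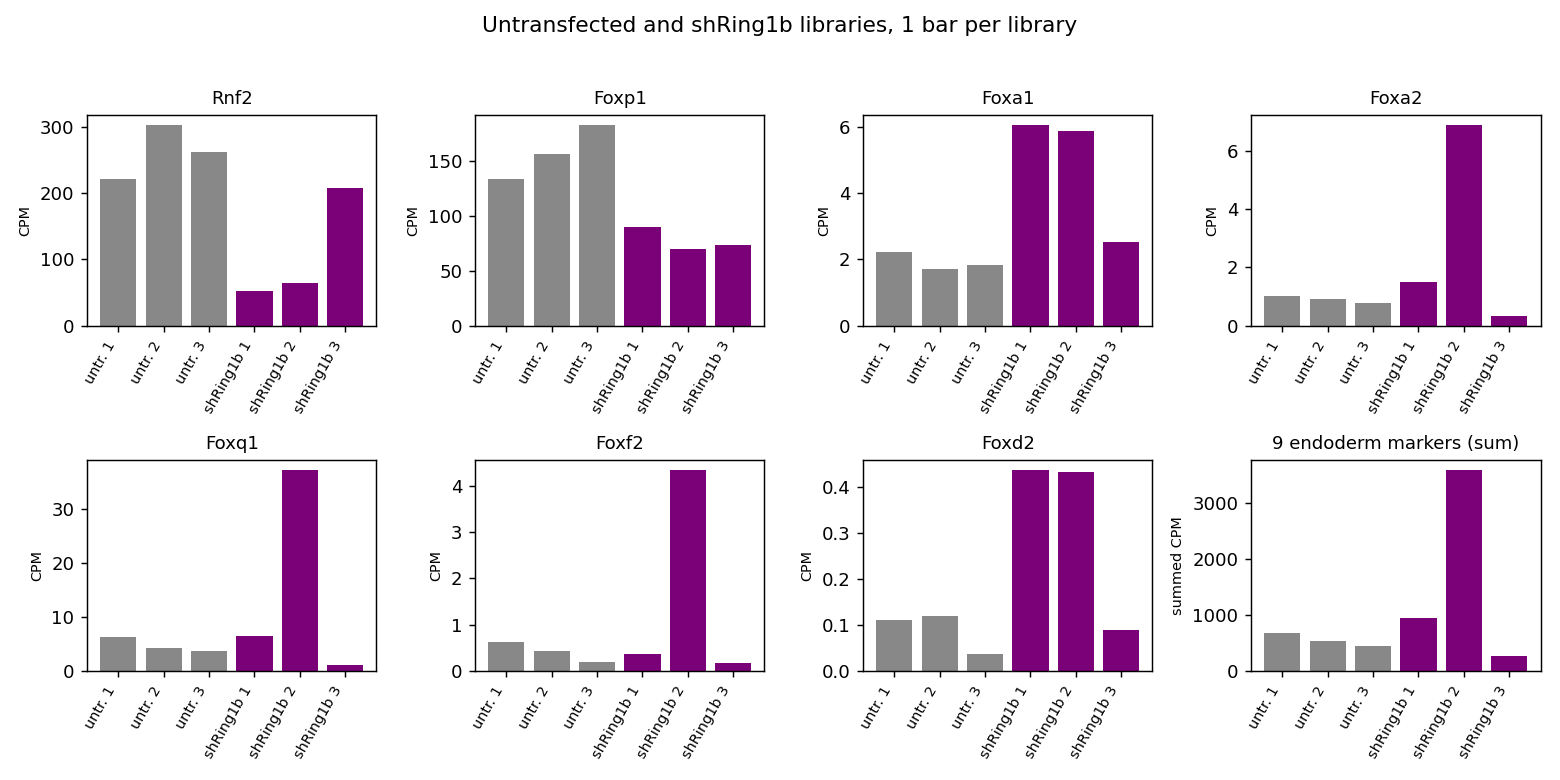
CPM of Rnf2, 6 forkhead genes and the sum of 9 extraembryonic endoderm markers (linear axes from 0), with 1 bar for each of 3 untransfected and 3 shRing1b libraries. Foxp1 is low in all 3 shRing1b libraries, Foxa1 and Foxd2 are highest in libraries 1 and 2, and Foxa2, Foxq1, Foxf2 and the marker sum peak in library 2.

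Other members are given by level. Foxf2, Foxm1, Foxo3 and Foxq1 were called in none of the 11 comparisons by edgeR with all libraries fitted together, but other settings called each of them. DESeq2 called Foxm1 higher with shMed12 than with shCdk8 after RA, and fits of the compared groups alone called Foxf2 and Foxq1 higher after RA with shNMC and higher with shCdk8 in mESC, and Foxo3 lower with shMed12 in mESC. Foxa3 was at 2.02 to 3.19 CPM and Foxr1 at 3.26 to 5.25 CPM (group means), and with all libraries fitted together each was called only between the 2 hairpins. Foxa3 was higher with shMed12 than with shCdk8 after RA (log2 0.53, SE 0.19, adjusted p 0.0271) and lost that call without any 1 of 5 libraries, all but shCdk8 library 1 (0.0547 to 0.119). With only the compared groups fitted, Foxr1 was also called as risen with shMed12 in mESC and as fallen in the shMed12 interaction. Among the 15 members under 1 CPM in every group, 6 were tested: Foxd1, Foxd2, Foxf1a, Foxi2, Foxp2 and Foxs1. The other 9 (Foxb1, Foxb2, Foxd4, Foxe1, Foxe3, Foxi1, Foxl1, Foxn1 and Foxp3) did not pass the filter. Their highest group mean was 0.286 CPM, for Foxp3 with shRing1b, where library 2 held 0.616 CPM and the other two 0.0337 and 0.208. A floor of 3 counts stands for 0.0464 to 0.120 CPM per library, so most of their values are not distinguishable from absence. Foxd4 was above that floor after RA in shNMC cells, with 10, 11 and 7 counts beside 1, 0 and 2 before. DESeq2 and the fit with no filter on low counts called Foxd4 as risen there. Both called Foxn1 as risen with shMed12 in mESC, and Foxb1 as higher with shMed12 than with shCdk8 in mESC. With no filter Foxn1 was also called as risen after RA. Foxb1, Foxl2 and Foxp3 overlap a counted gene on the other strand in GENCODE vM21. shNMC and untransfected mESC, the 2 control groups, differed in 0 members (edgeR; 1, Foxp4, at an unadjusted p under 0.05, and 0 by DESeq2), beside 0.00614% over all genes tested, although hairpin and library set cannot be told apart there.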

How the data were processed

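Per the labels' protocols, strand-specific poly-A libraries gave reads of 50 bp. The authors deposited raw read counts per gene symbol, 1 table per library. The submitters' processing notes name build mm9 and, with no roles, HTSeq 0.6.1p1, DESeq2 1.6.3, STAR 2.3.1z13, bcl2fastq 1.8.4 and SAMtools 1.2. No source used here names the annotation or strand setting. The 5 entries that name no gene, such as reads with several alignments, stayed out of library sizes. The largest such class, multiply aligned reads, held 20% to 49.1% of a table.

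Groups came from the labels. Counts of all 24 libraries were fitted with edgeR 4.0.16 (R 4.3.3): filterByExpr by group, trimmed mean of M values, 1 mean per group, robust quasi-likelihood F test, two-sided, 16 residual degrees of freedom, common biological coefficient of variation 0.145. Adjusted p under 0.05 over 16280 genes was called in each of 11 comparisons. SE values are the absolute log2 change over the root of the F statistic. Ratios for genes with 1 to 3 counts in a group carry exact 95% intervals, for counting error only. Alternatives were DESeq2 1.42.0, other scaling and filters, smaller fits, a replicate block, another control and leaving out each library; list counts under these settings and the tables without single shRing1b libraries were added after seeing the data. On simulated counts the fit recovered 49, 38, 42 and 49 of 50 genes at log2 changes of -2, -1, 1 and 2 for shMed12 in mESC. There were 11 false calls among 16172 genes tested. The changed genes were drawn from those with a mean of at least 50 counts per library, so this recovery does not cover low-level members.

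Same-numbered libraries deviated together (residual correlation over 0.1 in all 3 pairs) for shCdk8 and shNMC after RA (0.475, 0.287 and 0.537) and for shCdk8 and shMed12 in mESC (0.195, 0.157 and 0.339), with the numbers from the labels. So did 3 pairs of groups not compared directly, shMed12 mESC with shNMC after RA and shCdk8 mESC with shCdk8 or shNMC after RA (0.143 to 0.410). Members were taken by symbol, and a few genes are not reported here; other members called and at 1 CPM or more in a group are named with values, with up to 4 called genes of a list. The gene group, gene lists and comparisons were chosen with earlier results of these data known. Foxf1a is Foxf1 in the reference tables. Cells with shZrf1 and untransfected cells after RA are not analysed here. Gene order is from GENCODE vM21 (GRCm38), not the build of the counts, and promoters from RefSeq; Python 3 scripts drew the figures.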

Additional observations from a re-analysis of the deposited data

Results flagged for a closer look

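The change with shMed12 differed between the states for 2 forkhead genes by the interaction term of the edgeR fit. For Foxi3 the difference of the log2 differences was -3.25: shMed12 libraries were above all shNMC libraries in mESC and below all of them after RA. For Foxl2 it was -2.84, with a called rise in mESC and a log2 difference of 0.30 (adjusted p 0.561) after RA. The antisense transcript Foxl2os gave -2.82, and reads of Foxl2 and Foxl2os cannot be told apart. The Foxl2 interaction call was lost without any 1 of 7 libraries (adjusted p 0.0502 to 0.0919), while Foxi3 kept its call without any 1 of 12. No group of 3 libraries was tested for single outlying libraries.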

How the results depend on the processing

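Median-ratio scaling kept all 98 calls of named members, DESeq2 96, no filter on low counts 94, and a filter at 1 CPM in 3 libraries 84 of 86. Leaving out 1 library kept 470 of 600 and lost the threshold in 130. None changed direction. DESeq2 called 3 members for shCdk8 after RA (main 1) and 4 in the shMed12 by RA interaction (main 2). Over all 16456 genes tested it called 939 higher and 878 lower in the first and 508 and 737 in the second. With only the compared groups fitted, counts were 4 for shCdk8 in mESC (main 0), 0 for shRing1b (main 6), 5 for shCdk8 after RA and 7 in the shMed12 interaction. Calls over all genes in these fits were 1332 higher and 1002 lower of 14847 for shCdk8 in mESC and 0 of 14378 for shRing1b. They were 1522 and 1222 of 15828 for shCdk8 after RA, and 709 and 1528 of 15995 in the shMed12 interaction. With the replicate block in those smaller fits, counts were 8 for shCdk8 in mESC, 0 for shRing1b, 21 for shCdk8 after RA, 11 in the shMed12 interaction and 1 in the shCdk8 interaction. The block moved no other count by over 1.5 times, and every comparison other than shCdk8 after RA and shMed12 against shCdk8 in mESC, the interactions included, held a directly compared pair of groups with a correlation of 0.1 or less, so the numbers are not shown to pair libraries there. shNMC as control gave 11 for shRing1b, beside 20.2% over all genes tested. With the block, calls over all genes were 2143 higher and 1973 lower of 14847 for shCdk8 in mESC. They were 50.0% for shCdk8 after RA and 0 for shRing1b. In the shMed12 interaction they were 1425 and 2283 of 15995, and in the shCdk8 interaction 167 and 138 of 15947. The cause of these shifts was not tested; the smaller fits estimate the spread from fewer libraries.

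Without 1 library at a time, counts were 17 to 20 for RA, 15 to 18 for shMed12 in mESC, 11 to 14 for shMed12 after RA, 0 to 1 for shCdk8 after RA, 2 to 11 for shRing1b, 14 to 18 and 8 to 11 for shMed12 against shCdk8 in mESC and after RA, and 1 to 3 in the shMed12 interaction. Calls over all genes tested changed with the library left out too. For shRing1b they were 851 higher and 477 lower without control 3, and 2305 and 1595 without shRing1b library 3. Members at 1 CPM in a group numbered 28 to 30 without 1 library of each group. They numbered 29 with unscaled sizes and 28 when every library had to reach 1 CPM. Depth limits the 9 untested members and those with 3 counts or fewer in a group, for which only counting ratios are given.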

Other observations

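Several members spread widely among the untransfected libraries. Foxd3 was at 14.7, 37.2 and 23.7 CPM and Foxk2 at 117, 80.0 and 105 CPM in untransfected libraries 1, 2 and 3. Foxc2 was at 0.742, 0.120 and 0.334 CPM and Foxr1 at 2.75, 6.31 and 4.49 CPM there.

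Foxi3 had similar levels in the 2 hairpin lines after RA, 2.82 to 3.73 CPM with shMed12 and 2.55 to 3.96 CPM with shCdk8, from starting levels of 7.0 to 7.94 and 1.24 to 1.48 CPM. Foxc2 showed the same likeness after RA, at 0.864 ± 0.118 and 0.826 ± 0.0371 CPM (n = 3 each), beside 1.63 ± 0.161 with shNMC. With all libraries fitted, edgeR did not call Foxc2 for shCdk8 against shNMC after RA. Its call for shMed12 was lost without any 1 of 5 libraries. Foxo3 had group means of 27.8 to 38.1 CPM, while libraries within a group spread from 27.1 to 46.4 CPM in shNMC cells after RA. In mESC its shMed12 libraries, at 23.7, 27.6 and 32.2 CPM, were below the shNMC libraries, at 34.4, 32.8 and 37.5 CPM; edgeR did not call it with all libraries and called it as fallen with these 2 groups alone.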
